A study of Mus musculus with 8 samples.

Results

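The 45 genes described here belong to the response to type I interferon, and they were followed in resting mouse peritoneal macrophages (pMacs) with and without CD1d, a molecule that presents lipids to T cells. They were taken as a list of gene symbols (interferon β, both receptor subunits, signalling factors, sensors and induced effectors) and matched to gene IDs through an annotation of the mouse genome GRCm38. They make up 45 of the 48795 genes in the files, and 44 of them had enough counts to be tested. Polyadenylated RNA was sequenced from unstimulated pMacs of 4 WT (C57BL/6) and 4 CD1d-KO mice, which the study describes as littermate controls and knockouts. Replicates are numbered 1, 2, 3 and 5 within both genotypes, so that each number joins a WT and a CD1d-KO library in a pair. The methods name a pair of CD1d-KO lines, B6.129S6-Del(3Cd1d2-Cd1d1)1Sbp/J as well as CD1d flox mice crossed with PGK Cre, in both of which the deletion is carried by all cells of the mouse. Which line gave these libraries, and what the libraries of a number have in common, is not given in the sources used here. Mice were matched for age and sex and were between 8 and 16 weeks old, and the labels name no treatment.

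Type I interferons (the IFN-α family and IFN-β) bind a receptor made of IFNAR1 and IFNAR2. The kinases JAK1 and TYK2 at the receptor then phosphorylate STAT2, which takes part with IRF9 in a transcription factor called ISGF3. ISGF3 binds the interferon-stimulated response element in the promoters of genes whose products sense viral nucleic acid, block viral translation and replication, or tune the pathway itself. Macrophages keep a tonic level of this response without infection.

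To show the promoter sequence through which such genes are known to respond, the members were looked up among RefSeq promoters (GRCm38.p6, from 250 bases before to 50 after each start). Of the 45 members, 33 were in that set. The core of the response element was searched as GAAANNGAAA on both strands, which reads TTTCNNTTTC on the strand of the gene where the match lies on the other strand, and overlapping matches were counted separately. It was found anywhere in the window in 15 of the 33 members (45.5%) and in 1079 of all 27025 genes (3.99%). The match is a description of letters and not a measured binding site. Below, capitals mark the matches and each sequence runs 5′ to 3′ on the strand of the gene. *Ifit1* is shown because it was also a target of qPCR, *Rsad2* because it reached the highest normalized counts of the members, and *Isg15* because its 3 matches overlap. Each of these is the stretch from 250 to 51 bases before the start, at chr19:34640639-34640838 (plus strand) for *Ifit1*, chr12:26456503-26456702 (minus strand) for *Rsad2* and chr4:156200869-156201068 (minus strand) for *Isg15*.
Ifit1: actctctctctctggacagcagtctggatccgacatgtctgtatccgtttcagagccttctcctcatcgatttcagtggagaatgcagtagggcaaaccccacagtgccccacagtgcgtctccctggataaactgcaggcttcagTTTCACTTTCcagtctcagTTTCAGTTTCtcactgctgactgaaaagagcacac
Rsad2: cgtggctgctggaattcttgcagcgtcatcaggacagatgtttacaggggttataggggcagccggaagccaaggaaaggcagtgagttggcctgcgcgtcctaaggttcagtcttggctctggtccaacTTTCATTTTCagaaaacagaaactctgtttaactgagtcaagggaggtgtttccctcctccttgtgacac
Isg15: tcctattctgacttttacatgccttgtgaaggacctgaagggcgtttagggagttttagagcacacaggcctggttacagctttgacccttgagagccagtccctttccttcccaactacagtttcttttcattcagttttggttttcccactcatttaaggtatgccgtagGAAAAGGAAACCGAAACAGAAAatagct
In *Ifit1* the matches lay 104 to 95 and 85 to 76 bases before the start, and in *Rsad2* the match lay 120 to 111 bases before it. The neighbours *Ifit3* and *Ifit3b* are shown because they are near-identical copies whose reads are hard to tell apart, at chr19:34583360-34583429 and chr19:34607756-34607825 (both plus strand).
Ifit3: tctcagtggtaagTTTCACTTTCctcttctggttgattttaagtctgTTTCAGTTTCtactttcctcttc
Ifit3b: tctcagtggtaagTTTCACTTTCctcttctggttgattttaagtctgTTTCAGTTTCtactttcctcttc
These stretches were equal at 70 of 70 bases. The members without a match in the window included *Ifnar1*, *Ifnar2* and *Ifnb1*, and also induced genes such as *Ifit2*, *Irf7* and *Isg20*.

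Before the comparison, the deleted gene was read in each library, as normalized counts (counts scaled to the mean library size after TMM normalization). *Cd1d1* (chromosome 3, 86995834 to 86999441) had 68.2, 175, 96.1 and 141 normalized counts in WT replicates 1, 2, 3 and 5, and 1.14, 0 and 1.1 in CD1d-KO replicates 2, 3 and 5. The library labelled CD1d-KO replicate 1 had 60.7, within reach of its WT partner, so the label was not borne out by this gene. Directions between the genotypes below follow the labels, and the main counts, the spread and the medians by role are given also without replicate 1 (both libraries of the pair). The files held 13698864 to 19059432 counts per library, and the deepest were WT replicate 1 and CD1d-KO replicate 1 (19059432 and 18631659).

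The level of the interferon-stimulated genes differed more between mice of a genotype than between genotypes. The order of the WT mice was the same for most of these genes, while the order of the CD1d-KO mice was more mixed. In WT replicates 1, 2, 3 and 5, *Ifit1* (an RNA-binding protein that stops translation of viral RNA, ENSMUSG00000034459, chromosome 19 from 34640871 to 34650009) had 504, 7528, 16256 and 3985 normalized counts. In CD1d-KO replicates 1, 2, 3 and 5 it had 2474, 10070, 15097 and 10721. The genotypes overlapped, replicate 1 was the lowest library of each genotype, and replicate 3 was the highest. *Mx1* (a GTPase against influenza viruses, of which C57BL/6 mice carry a defective allele, ENSMUSG00000000386, chromosome 16 from 97447035 to 97462907) showed the same order. Its normalized counts were 205, 2880, 7398 and 1577 in WT and 833, 3837, 8928 and 5858 in knockout pMacs. In group means, *Ifit1* had 7068 ± 6763 normalized counts in WT and 9591 ± 5243 in knockout pMacs, and *Mx1* had 3015 ± 3119 and 4864 ± 3406 (SD, n = 4 each).

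Across the 44 tested members, WT replicate 1 was the lowest of the 8 libraries for 43, and the library labelled CD1d-KO replicate 1 was the second lowest for 42. CD1d-KO replicate 3 was the highest for 31 members, WT replicate 3 for 10 and CD1d-KO replicate 5 for 3. Within the WT libraries, 40 of 44 members had the order replicate 1, 5, 2, 3 from low to high. Within the CD1d-KO libraries, replicate 1 was the lowest for all 44, and 26 members had the order 1, 2, 5, 3 and 13 the order 1, 5, 2, 3. The share of all counts that fell on the 45 genes was 0.267%, 1.17%, 1.98% and 0.814% in WT replicates 1, 2, 3 and 5. It was 0.606%, 1.31%, 2.11% and 1.66% in CD1d-KO replicates 1, 2, 3 and 5. In bulk libraries such as these, fewer cells of a type and less RNA per cell cannot be told apart.

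**Figure D1:**
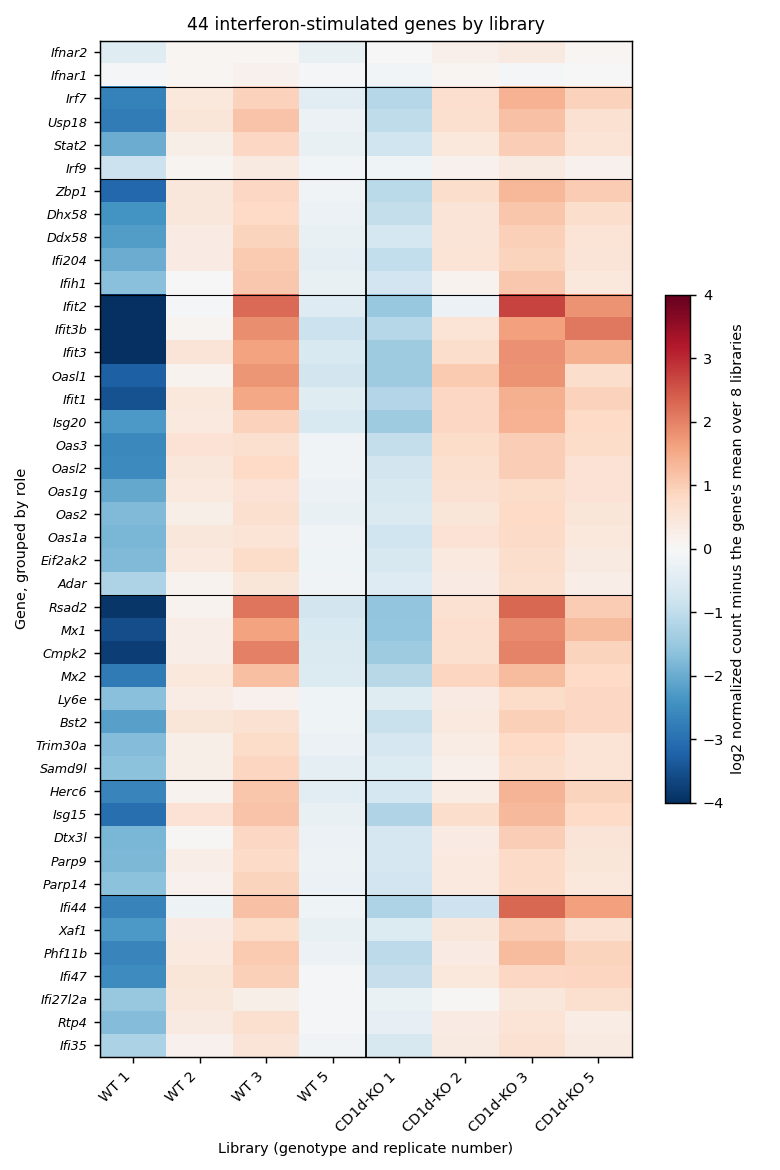
Heat map of 44 interferon-stimulated genes (rows, grouped by role with lines between roles) in the 8 libraries (columns, WT left and CD1d-KO right of the vertical line). Colour gives the log2 normalized count minus the mean of the gene over the 8 libraries, cut at 4 in either direction; the WT 1 column is the lowest for 43 genes and CD1d-KO 1 the second lowest for 42.

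The spread was large within each genotype. Among WT libraries the highest value was a median of 8.49-fold the lowest (from 1.2-fold for *Ifnar1* to 105-fold for *Ifit2*), and among CD1d-KO libraries a median of 3.52-fold (from 1.15-fold to 18.7-fold). For all 13040 tested genes these medians were 1.47-fold and 1.49-fold. On the log2 CPM scale (counts scaled by library size, prior count 2) the standard deviation over WT libraries had a median of 1.35 over the members and 0.24 over all tested genes. Over CD1d-KO libraries it was 0.80 and 0.25. It was smaller in the CD1d-KO than in the WT libraries for 43 of 44 members (97.7%), with *Ifi44* as the exception, against 48% of all tested genes. The members moved together over the same libraries, so such counts are not of independent genes. When the variation of each gene on that scale was divided between pairs, genotypes and the rest, pairs (3 degrees of freedom) took a median of 82.7% and genotype (1 degree of freedom) a median of 10.2% for the members. For all tested genes the medians were 64.8% and 7.14%. Much of this rested on replicate 1. Without it (3 libraries of each genotype, chosen after the values were seen) the highest value was a median of 2.12-fold the lowest in WT and 1.46-fold in CD1d-KO, against 1.36-fold and 1.37-fold for all tested genes. The median standard deviation of the members was then 0.55 in WT and 0.28 in CD1d-KO, and it was smaller in CD1d-KO for 41 of 44 (93.2%, against 47.4% of all tested genes). Pairs took a median of 59.3% of the variation of the members, near the 58.8% of all tested genes, and genotype a median of 21% against 9.9%.

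**Figure D2:**
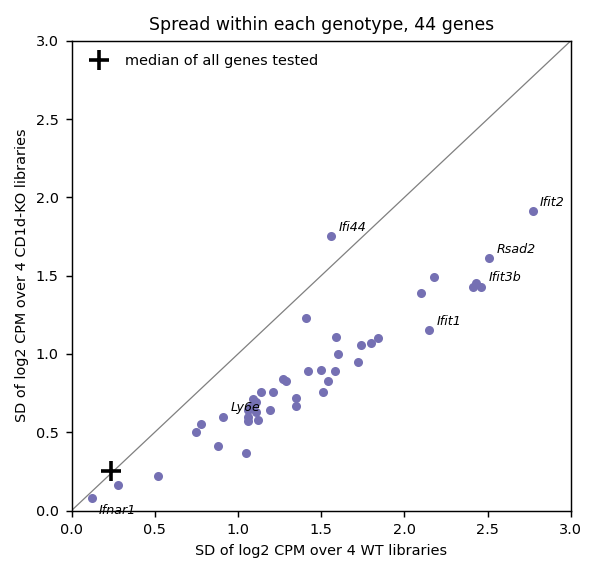
Standard deviation of log2 CPM over the 4 WT libraries (x axis) against that over the 4 CD1d-KO libraries (y axis) for 44 genes (points), with the line of equal values and a cross at the medians of all tested genes (0.24 and 0.25). All points but *Ifi44* lie below the line.

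Of the 8619 tested genes with a mean of at least 100 normalized counts, the 100 with the largest standard deviation over WT libraries (1.16%) held 26 of the 44 members. They also held 14 of 47 genes from a list of further interferon-stimulated genes and 7 of 11 from a list of genes responsive to IFN-γ. Over the WT libraries without replicate 1, the 100 most variable genes held 9, 7 and 3 of these lists. These counts were chosen after the values were seen.

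The genotype comparison asks whether the absence of CD1d alters this programme in resting macrophages. Within pairs, the CD1d-KO library was higher for 43 of 44 members in pair 1 and 44 of 44 in pair 5, and for 35 and 33 of 44 in pairs 2 and 3. Of all tested genes, 51.7%, 48.8%, 49.6% and 50.7% were higher in pairs 1, 5, 2 and 3. The median log2 ratio of CD1d-KO over WT was 1.40, 0.16, 0.16 and 0.90 in pairs 1, 2, 3 and 5, or 2.64-fold, 1.11-fold, 1.12-fold and 1.87-fold. The corresponding median over all tested genes lay between -0.01 and 0.01 in each pair. A log2 ratio above 1 was seen for 35 members in pair 1, 17 in pair 5, 1 in pair 3 and 0 in pair 2. For all tested genes the shares were 4.72%, 3.9%, 3.48% and 2.04%, so in pairs 3 and 2 the members were near all genes by this measure. The pairs with the lowest WT levels, 1 and 5, were thus the pairs with the largest ratios (the WT level enters both values), and pair 1 holds the library whose *Cd1d1* went against its label. Whether the ratio differs between pairs cannot be tested with 1 library per genotype in a pair.

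**Figure D3:**
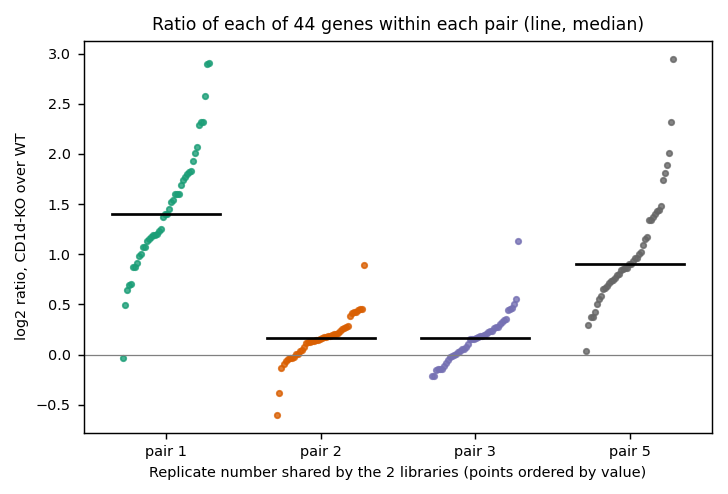
Log2 ratio of CD1d-KO over WT log2 CPM (y axis) for 44 genes (points, ordered by value) within each pair of libraries (x axis), with the median as a line. The medians are 1.40, 0.16, 0.16 and 0.90 in pairs 1, 2, 3 and 5.

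**Figure D4:**
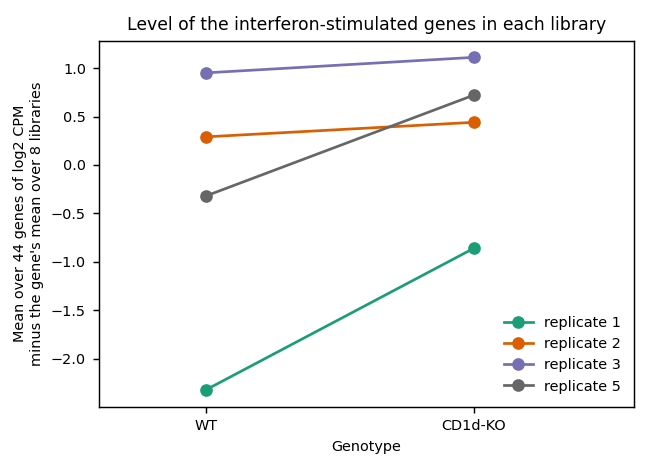
Mean over 44 genes of the log2 CPM minus the mean of each gene over the 8 libraries (y axis), for WT and CD1d-KO (x axis), with a line for each replicate number. Replicate 1 runs from -2.32 to -0.86 and replicate 3 from 0.95 to 1.11, so the genotypes overlap.

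With the replicate number in the model, the quasi-likelihood test of edgeR called 0 of the 44 members at the thresholds of the study (fold change above 1.5 and adjusted p under 0.01), as against 5 of all 13040 genes (0.0383%). No member had an adjusted p under 0.05, and adjusted p ran from 0.122 to 0.854. At an unadjusted p under 0.05, 36 members were higher in CD1d-KO (81.8%, against 7.35% of all tested genes), and 43 of 44 had a log2 fold change above 0 (against 51% of all tested genes). The median log2 fold change was 0.66 for the members, a 1.58-fold difference, and 0.00 for all tested genes. Of the members, 28 were higher in CD1d-KO in every one of the 4 pairs (63.6%, against 10.6% of all tested genes). Normalized counts of the genotypes overlapped for 44 of 44 members. As the groups did not overlap for 1.95% of all tested genes, this share of the members is near that of all genes. The members share mice and most of them moved together over the libraries, so these shares do not count independent genes.

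The other settings bear on these counts as follows. DESeq2 with the same covariates called 2 of 44 members, *Isg20* and *Ly6e* (against 1.02% of the 10398 genes to which it gave an adjusted p), and gave 9 an adjusted p under 0.05, all higher (against 2%). With no filter on low counts edgeR called 23 of 45 members (against 0.93%). Without replicate 1 the median log2 fold change of the members was 0.40, edgeR called 0, and 25 had an unadjusted p under 0.05 and were higher (against 5.55%). The same count was 42 without replicate 2 (against 8.97%), 40 without replicate 3 (against 5.9%) and 13 without replicate 5 (against 5.14%). Without the pair term it was 0 (against 1.62%), with a median log2 fold change of 0.44.

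*Ifnb1*, the gene of interferon β (chromosome 4, 88522025 to 88522774), was at the limit of detection. It had 0 counts in WT replicates 1, 2 and 5 and in CD1d-KO replicate 1, 2 counts in WT replicate 3, and 3, 3 and 1 counts in CD1d-KO replicates 2, 3 and 5. These counts were too few to test, and the depth does not allow a difference to be seen. Of 19 further interferon ligand genes (IFN-α subtypes, IFN-γ, IFN-λ and others), 16 had 0 counts in all 8 libraries and 18 had at most 3 counts in each. *Ifnk* was the exception, with 2.35 to 14.3 normalized counts, and it too was not tested. The libraries with the highest levels of the induced genes, replicate 3 of each genotype, thus held at most 3 counts of an IFN-α or IFN-β gene each.

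The receptor genes moved little between mice. *Ifnar1* (chromosome 16, 91485238 to 91507441) had 5198, 5782, 6222 and 5270 normalized counts in WT replicates 1, 2, 3 and 5 and 5083, 5841, 5378 and 5406 in their knockout partners. The groups overlapped, and the log2 fold change was -0.05 (standard error, SE, 0.07, edgeR adjusted p = 0.854). *Ifnar2* (chromosome 16, 91372783 to 91405589) had 2041, 3034, 3007 and 2317 normalized counts in WT and 2864, 3266, 3694 and 3001 in knockout pMacs, higher in 4 of 4 pairs. Its log2 fold change was 0.32 (SE 0.08, adjusted p = 0.169 with edgeR and 0.0418 with DESeq2, the lowest of any alternative), and 0.26 without replicate 1, where the DESeq2 adjusted p was 0.517.

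Of the 4 signalling factors, 4 had a log2 fold change above 0, with a median of 0.63, and 3 had an unadjusted p under 0.05 and were higher, which 7.35% of all tested genes were. Without replicate 1 the median was 0.37 and 2 passed that p (5.55% of all tested genes). *Irf7* (chromosome 7, 141262706 to 141266481) encodes the transcription factor that amplifies interferon production, and was among the 3 members with the highest mean TPM (527 over the 8 libraries). Its normalized counts were 1072, 9195, 13060 and 5059 in WT replicates 1, 2, 3 and 5 and 3118, 11045, 17988 and 13037 in their knockout partners. Replicate 1 was the lowest library of each genotype by a wide margin. The log2 fold change of *Irf7* was 0.90 (SE 0.22, edgeR adjusted p = 0.15), and 0.69 without replicate 1. *Irf9* (chromosome 14, 55603571 to 55610030), the DNA-binding subunit of ISGF3, had the smallest difference of the 4. It had 743, 1454, 1710 and 1233 normalized counts in WT and 1196, 1499, 1720 and 1504 in knockout pMacs, nearly equal in pairs 2 and 3. Its log2 fold change was 0.26 (SE 0.11, edgeR adjusted p = 0.42), and 0.11 without replicate 1. *Stat2*, the partner of IRF9 in ISGF3, had a log2 fold change of 0.58 (edgeR adjusted p = 0.232), and *Usp18*, which removes ISG15 from proteins and damps the receptor, of 0.68 (edgeR adjusted p = 0.349). Without replicate 1 these were 0.39 and 0.35.

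The 5 sensors of nucleic acid all had a log2 fold change above 0 and an unadjusted p under 0.05, with a median of 0.65. Of all tested genes, 7.35% were higher at that p. They are *Ddx58* (RIG-I), *Ifih1* (MDA5) and *Dhx58* (LGP2), which bind viral RNA, *Zbp1*, which binds nucleic acid in the Z form, and *Ifi204*, which binds DNA. *Zbp1* had the largest log2 fold change, 0.98 (SE 0.26, edgeR adjusted p = 0.194), and its log2 ratios were 2.07, 0.27, 0.50 and 1.17 in pairs 1, 2, 3 and 5. *Ifih1* had the smallest, 0.43 (SE 0.16, edgeR adjusted p = 0.315), with log2 ratios of 0.91, 0.13, -0.01 and 0.71. Without replicate 1 the median of the 5 was 0.37 and 3 had an unadjusted p under 0.05 (against 5.55% of all tested genes). Without the pair term none of the 44 members did. *Ifi204* belongs to a cluster of similar genes, and its expected counts were not whole numbers in 8 of 8 libraries, which shows that reads were divided among genes. The same held for other members, such as *Ifit1*, *Mx1*, *Ifnar2* and *Irf9*.

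The 13 effectors that act on RNA had the widest range of differences, from 0.37 for *Adar* to 1.32 for *Ifit2* on the log2 scale (median 0.74). At an unadjusted p under 0.05, 11 of them were higher (against 7.35% of all tested genes). Without replicate 1 the median was 0.46 and 8 passed that p (against 5.55%). *Ifit2* (chromosome 19, 34550694 to 34576419), like *Ifit1* a binder of foreign RNA, had 113, 2306, 11907 and 1701 normalized counts in WT replicates 1, 2, 3 and 5 and 862, 2104, 16157 and 8531 in their knockout partners. The values span 105-fold among the WT libraries alone, and in pair 2 the CD1d-KO library was the lower one. Its log2 fold change had an SE of 0.49 and an edgeR adjusted p of 0.328. For *Ifit1* the log2 fold change was 0.99 (SE 0.35, edgeR adjusted p = 0.311), and 0.57 without replicate 1.

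*Ifit3* (chromosome 19, 34583531 to 34588731) had 233, 5422, 11501 and 2488 normalized counts in WT replicates 1, 2, 3 and 5 and 1408, 6192, 13476 and 10056 in their knockout partners. Its copy *Ifit3b* (chromosome 19, 34607970 to 34613401) had 11.3, 229, 776 and 118 in WT and 97, 314, 669.6 and 928 in knockout pMacs. Both were lowest in WT replicate 1, and in pair 3 *Ifit3* was higher and *Ifit3b* lower in the CD1d-KO library. Their longest transcripts were 97.8% identical over 1700 bases, so the split of reads between them is uncertain. Summed, they had a log2 fold change of 1.24 (SE 0.42, edgeR adjusted p = 0.279). For *Ifit3* alone it was 1.22 (edgeR adjusted p = 0.275) and for *Ifit3b* 1.25 (edgeR adjusted p = 0.405).

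*Oasl1* (chromosome 5, 114923240 to 114937915) is related to the oligoadenylate synthetases, whose product activates RNase L. It had 301, 3215, 9826 and 1739 normalized counts in WT replicates 1, 2, 3 and 5 and 1077, 5979, 10218 and 4720 in their knockout partners, higher in 4 of 4 pairs. Its log2 ratio in pair 2, 0.89, was the largest of any member in that pair. The log2 fold change was 1.04 (SE 0.26, edgeR adjusted p = 0.16), and 0.79 without replicate 1. *Oas1a*, *Oas1g*, *Oas2*, *Oas3* and *Oasl2* had log2 fold changes from 0.48 to 0.74. *Oas1a* and *Oas1g* (97.6% identical over 1861 bases) are near-identical too, and summed they had a log2 fold change of 0.52 (edgeR adjusted p = 0.228).

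*Isg20* (chromosome 7, 78913424 to 78920396), an exonuclease that degrades RNA, had the smallest p of the members. Its normalized counts were 96.7, 627, 911 and 311 in WT replicates 1, 2, 3 and 5 and 179, 839.7, 1249 and 826 in their knockout partners. The CD1d-KO library was higher in each of the 4 pairs, with log2 ratios of 0.87, 0.42, 0.45 and 1.40, while the groups overlapped. The log2 fold change was 0.77 (SE 0.16, edgeR adjusted p = 0.122), and DESeq2 called it (adjusted p = 0.00245; over all alternatives, 1.9e-04 to 1). Without replicate 1 the log2 fold change was 0.74 (edgeR adjusted p = 0.302), nearly as large as with it, and DESeq2 no longer called it (adjusted p = 0.0322). The kinase PKR (*Eif2ak2*), which stops translation on double-stranded RNA, had a log2 fold change of 0.40 (edgeR adjusted p = 0.445) and log2 ratios of -0.02 and -0.05 in pairs 2 and 3. *Adar*, which edits adenosine to inosine in double-stranded RNA, lies 2.72 Mb from *Cd1d1* on chromosome 3. A CD1d-KO line of 129 origin can differ from WT in DNA near the deletion, and its part in the value of *Adar* was not tested.

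The 8 effectors that restrict viruses had log2 fold changes from 0.46 to 1.16 (median 0.76). At an unadjusted p under 0.05, 7 of them were higher (against 7.35% of all tested genes). Without replicate 1 the median was 0.56 and 5 passed that p (against 5.55%). *Rsad2* (viperin, which makes a nucleotide that ends viral RNA chains, chromosome 12 from 26442746 to 26456452) had 926, 15259, 60040 and 8191 normalized counts in WT replicates 1, 2, 3 and 5. It had 4623, 20894, 67960 and 27449 in CD1d-KO pMacs, higher in 4 of 4 pairs although the ratio in pair 3 was small (log2 ratio 0.18). WT replicate 3 was 64.8-fold above WT replicate 1, and the log2 fold change between genotypes was 1.16 (SE 0.34, edgeR adjusted p = 0.226, and 0.78 on the log2 scale without replicate 1). *Mx1* had a log2 fold change of 1.12 (SE 0.31, edgeR adjusted p = 0.201), and 0.84 without replicate 1. *Cmpk2*, a mitochondrial nucleotide kinase and neighbour of *Rsad2*, had an edgeR adjusted p of 0.298 and log2 ratios of 2.32, 0.38, -0.02 and 1.48 in pairs 1, 2, 3 and 5.

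*Ly6e* (chromosome 15, 74955051 to 74959905), a surface protein that restricts the entry of coronaviruses, had the highest mean TPM of the members (748, with *Rsad2* next at 719). Its normalized counts were 2188, 8653, 7894 and 6149 in WT replicates 1, 2, 3 and 5 and 4977, 8712, 11567 and 12494 in their knockout partners. Unlike most members it was highest in CD1d-KO replicate 5, and the libraries of pair 2 were nearly equal. The log2 fold change was 0.69 (SE 0.18, edgeR adjusted p = 0.179), and DESeq2 called it (adjusted p = 0.00511; over all alternatives, 9.4e-04 to 1). Without replicate 1 the log2 fold change was 0.53 (edgeR adjusted p = 0.445), and DESeq2 no longer called it (adjusted p = 0.0979). *Bst2* (tetherin, which holds budding virus at the cell surface), *Trim30a* and *Samd9l* had log2 fold changes of 0.61, 0.49 and 0.46.

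The 5 genes of ISG15 and ADP-ribosylation had a median log2 fold change of 0.59, and 5 had an unadjusted p under 0.05 (0.40 and 3 without replicate 1). Of all tested genes, 7.35% were higher at that p, and 5.55% without replicate 1. *Isg15*, a ubiquitin-like protein that is linked to others, had a log2 fold change of 0.77 (edgeR adjusted p = 0.287), and *Herc6*, the ligase that attaches it in mice, of 0.90 (edgeR adjusted p = 0.242). *Parp9* and *Dtx3l*, whose proteins form a complex, are neighbours on chromosome 16 and had log2 fold changes of 0.47 and 0.59. The other induced genes had a median of 0.57, and 4 of 7 had an unadjusted p under 0.05 (0.26 and 3 without replicate 1), against the same shares of all tested genes. *Ifi35* (chromosome 11, 101448407 to 101458698) had the smallest difference of these 7, with 549, 1501, 1907 and 1217 normalized counts in WT replicates 1, 2, 3 and 5 and 859, 1693, 2046 and 1719 in their knockout partners. It was higher in 4 of 4 pairs (log2 fold change 0.35, SE 0.10, edgeR adjusted p = 0.212). *Ifi44* had the lowest log2 ratio of the members in pair 2 (-0.60) and the highest in pair 3 (1.13).

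**Figure D5:**
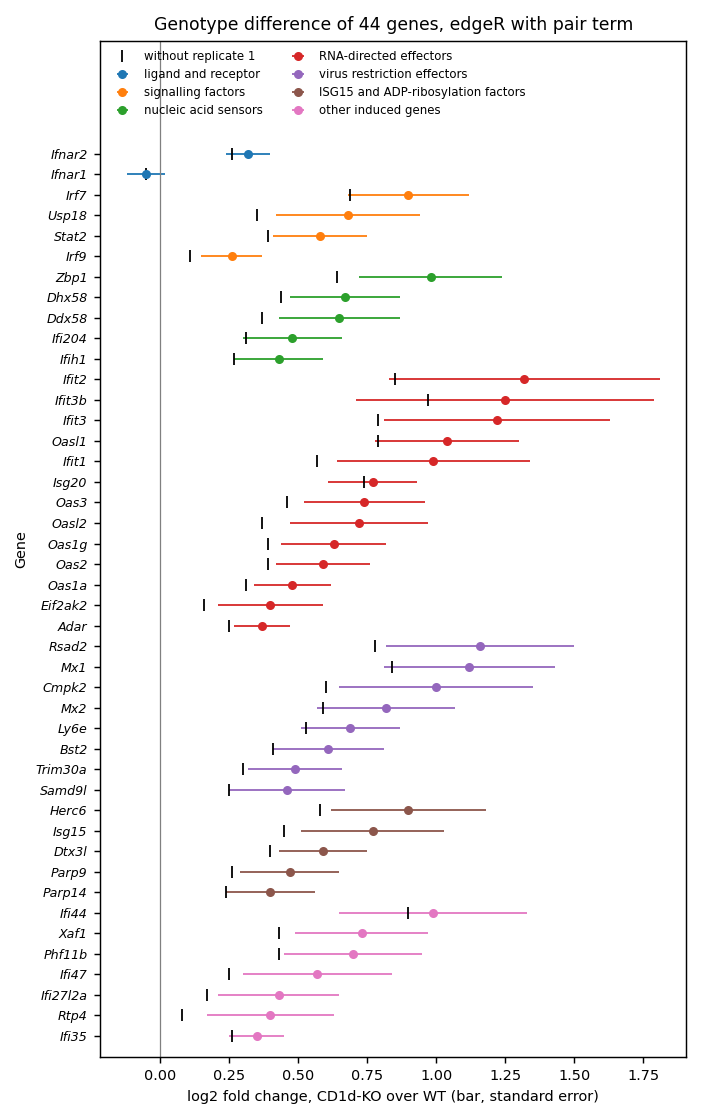
Log2 fold change of CD1d-KO over WT (x axis, bars of 1 standard error, edgeR with the replicate number in the model) for 44 genes (y axis, coloured by role), with black ticks for the fit without replicate 1. The points run from -0.05 for *Ifnar1* to 1.32 for *Ifit2*, and 43 of 44 lie above 0.

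The members lie on 16 chromosomes and in several clusters. The *Ifit* members (4 genes, chromosome 19 from 34550694 to 34650009) and the *Oas* members (4 genes, chromosome 5 from 120730333 to 120907521) are the largest groups within 1 Mb of each other. The neighbours *Ifnar1* and *Ifnar2*, both on chromosome 16, had log2 fold changes of -0.05 and 0.32.

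Other genes of the pathway were read from lists. Of all genes, edgeR called 0.0383%, DESeq2 1.02% and edgeR with no filter 0.93%. At an unadjusted p under 0.05 with edgeR, 7.35% were higher in CD1d-KO. Of the 9 receptor signalling genes, edgeR and DESeq2 called 0 (edgeR with no filter 1), with a median log2 fold change of 0.12. At that unadjusted p 3 of them passed, all higher in CD1d-KO. The smallest p belonged to *Socs3*, an inhibitor of cytokine receptors (log2 fold change 0.32, edgeR adjusted p = 0.148), and the next to *Tyk2* (0.26, adjusted p = 0.171). The 17 genes that lead from sensors to interferon production had a median of 0.16 and 0 calls by either tool. At an unadjusted p under 0.05 there were 2 (against 7.35% of all tested genes), *Trim25* (0.44, edgeR adjusted p = 0.177) and *Ticam2* (0.26, adjusted p = 0.358). The values of these lists are thus closer to the median of all tested genes (0.00) than those of the members. The 49 further interferon-stimulated genes had a median of 0.53, and 0.41 without replicate 1. Of these, edgeR called 0, DESeq2 called 3 and edgeR with no filter 9 (against 0.0383%, 1.02% and 0.93% of all genes). At the level of single tests, 40 had an unadjusted p under 0.05 and were higher (against 7.35% of all tested genes), and 0 were lower at that p. As for the members, replicate 1 was low, since WT replicate 1 was the lowest WT library for 49 of 49 and replicate 1 the lowest CD1d-KO library for 47. The 4 with the smallest p were *Rnf213* (log2 fold change 0.71, edgeR adjusted p = 0.115), *Helz2* (0.52, adjusted p = 0.144), *Ifi205* (0.54, adjusted p = 0.148) and *Znfx1* (0.53, adjusted p = 0.158).

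Genes known as targets of IFN-γ, the type II interferon, many of which respond to type I interferon too, were read in the same way. Of 13 tested, 13 had a log2 fold change above 0 (median 0.74, and 0.46 without replicate 1), against 51% of all tested genes. At an unadjusted p under 0.05, 10 were higher (against 7.35%). Calls were 0 by edgeR, 2 by DESeq2 (*Nos2* and *Gbp4*) and 6 by edgeR with no filter (against 0.0383%, 1.02% and 0.93% of all genes). *Nos2*, the inducible nitric oxide synthase, had 11.2, 33.3, 207 and 47.4 normalized counts in WT replicates 1, 2, 3 and 5 and 28.8, 56.1, 676 and 292 in their knockout partners. Its log2 fold change was 1.74 (SE 0.27, edgeR adjusted p = 0.0501) and was 1.80 without replicate 1. The guanylate-binding protein *Gbp4* had a log2 fold change of 1.65 (SE 0.28, edgeR adjusted p = 0.065), and 1.52 without replicate 1.

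The labelled cell type was checked against markers. The 7 macrophage markers summed to 342336 to 383775 normalized counts in WT and 285326 to 362885 in CD1d-KO libraries, a range of values far narrower than that of the members. *Lyz2* was the highest and made up most of each sum, so this range is largely that of *Lyz2*. *Fcgr1*, a macrophage marker itself known to be induced by interferon, had 77.9, 1925, 2997 and 526 normalized counts in WT replicates 1, 2, 3 and 5. In their knockout partners it had 349.5, 2163, 3339 and 2131. Markers of plasmacytoid dendritic cells, a main source of IFN-α, summed to 67.7 to 189.8 normalized counts in WT and 67.5 to 406 in CD1d-KO libraries, and their defining marker *Siglech* had 0 to 4.4. The highest of these sums, 406, was in CD1d-KO replicate 5, against 106 in its WT partner. Most of it was *Ccr9* (322, against 44.3 in the WT partner), so the difference is mostly that of *Ccr9*. B cell markers (6 of 6 tested) summed to 2866 to 7760 in WT and 1865 to 12945 in CD1d-KO libraries. In replicates 1, 2, 3 and 5 these sums were 6966, 2866, 6165 and 7760 in WT libraries. In CD1d-KO libraries they were 8510, 1865, 5302 and 12945. The sums were thus higher in CD1d-KO in pairs 1 and 5, where the ratios of the members were largest, and lower in pairs 2 and 3. In pair 3 the lower sum was mostly that of *Ighm* (4216 in WT and 3456 in CD1d-KO), and the other B cell markers went both ways. Of T and NK cell markers, which summed to 33.6 to 47.2 and 18.8 to 45.5, *Ncr1* was at 0 in all libraries. Neutrophil markers summed to 45.7 to 54.8 in WT and 83.4 to 95.6 in CD1d-KO libraries, mostly from *S100a8*, and *Ly6g* was at 0. The other neutrophil markers had at most 3.3 normalized counts in a library, so the difference is that of *S100a8* alone. *S100a8* had 84.2 in the library labelled CD1d-KO replicate 1. It lies on chromosome 3 (90668978 to 90670035), as does *Cd1d1*, and the part of DNA near the deletion in its value was not tested. Markers of large peritoneal macrophages summed to 11111 to 16713 in WT and 14055 to 15914 in CD1d-KO libraries, and those of small peritoneal macrophages and dendritic cells to 1098 to 1862 and 963 to 2347. The sums were 74.9 to 209.8 and 47.3 to 152 for mast cells, 15.7 to 40.8 and 15.2 to 54.9 for eosinophils, and 0.749 to 2.4 and 1.52 to 3.3 for mesothelial cells, with *Krt19* at 0. The part of other cells and of sequencing depth in the level of the members, and in their ratios within pairs, was not tested. The libraries with the lowest levels, replicate 1 of each genotype, were also the deepest.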

How the data were processed

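Single-end reads of polyadenylated RNA came from pMacs of 8 mice, 4 of each genotype. The authors trimmed reads with cutadapt, aligned them to GRCm38 (Ensembl release 86) with STAR 2.5.2a and deposited the expected counts per gene estimated by RSEM 1.3.0, beside TPM values from the same program. RSEM divides reads between similar genes, and the strand setting is not given in the sources used here, so near-identical and antisense genes are uncertain. Genotype and replicate number came from the library titles. After rounding, expected counts were passed through filterByExpr and scaled by TMM in edgeR 4.0.16 (R 4.3.3), and tested by its quasi-likelihood test with genotype and replicate number, with p-values adjusted by the Benjamini-Hochberg method over 13040 genes. A call required both a fold change above 1.5 and an adjusted p under 0.01. The SE given with edgeR values was derived from the test, as the absolute log2 fold change divided by the square root of its F statistic. The tests were checked on simulated counts. Alternatives were DESeq2 1.42.0, other scaling factors and filters, no pair term, limma 3.58.1 on log2(TPM + 1), copies summed, and leaving out each replicate. The spread without replicate 1 was added after seeing the data. Transcripts were compared with blastn 2.17.0, and of the gene IDs 99.26% were found in the annotation GENCODE M21. All p-values are two-sided.

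The replicate number was kept as a block, as in the study's covariates. Same-numbered WT and CD1d-KO libraries correlated across genes, after removing genotype means, with 0.487, 0.387, 0.505 and 0.207 for numbers 1, 2, 3 and 5. For number 5 this was below the highest correlation of its libraries with another number, 0.22, so that its pairing rests on the shared number alone. No library was a copy of another, with a smallest chi-square per degree of freedom of 14.6 over 28 pairs of libraries. Totals of 13698864 to 19059432 counts set the precision of low genes, and 3 counts were taken as the floor. The members and lists were chosen with earlier results of these data known. Of the members, all may be named; values of each library are given for *Ifit1*, *Mx1*, *Ifnb1*, *Ifnar1*, *Ifnar2*, members called by edgeR or DESeq2, the 6 tested members with the largest and the 4 with the smallest absolute log2 fold change and the 3 with the highest mean TPM. Up to 4 genes of a pathway list were named by the smallest p (a listed gene that this rule would name is not reported here), and markers by the highest level or by being at 0.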

Additional observations from a re-analysis of the deposited data

Results flagged for a closer look

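*Cd1d1* had 60.7 normalized counts in the library labelled CD1d-KO replicate 1, whereas CD1d-KO replicates 2, 3 and 5 had 0 to 1.14, a gap of 0.98 of the whole range. It was the 1 value out of 90 groups of 4 libraries (44 members and *Cd1d1* in each genotype) that lay far from the others by Dixon's test, where chance gives about 1 in 20. No member was set apart in this way, although replicate 1 was the lowest library of each genotype for all 44 of them.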

How the results depend on the processing

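Under each alternative the median log2 fold change of the members stayed above 0, between 0.35 and 0.85. Counts that moved by over 1.5 times were these. DESeq2 called 2 members and 106 genes in all, with 9 members at an adjusted p under 0.05. With no filter on counts edgeR called 23 members and 236 genes, with 35 members at an adjusted p under 0.05; the cause was not tested. Without the replicate block, 0 members had an unadjusted p under 0.05 and 3 genes were called, with 0 members also when CD1d-KO replicate 1 was left out and 1 when both libraries of replicate 1 were (the last chosen after seeing the data). With limma on log2(TPM + 1), 3 genes were called. DESeq2 without replicate 1, also chosen after seeing the data, gave 44 genes called, 0 members called, 3 members at an adjusted p under 0.05 and 22 at an unadjusted p. Leaving out each replicate in turn gave 3 to 22 genes called, 0 to 2 members at an adjusted p under 0.05 and 13 to 42 at an unadjusted p. The median of the receptor signalling list was 0.21 with limma and also without the block and CD1d-KO replicate 1. *Ifnar1*, at -0.05, lay between -0.08 and 0.01 when single replicates were left out, and turned to 0.01 without replicate 3. Of 658 fits of single members under alternatives, 25 became calls (23 with no filter and 2 with DESeq2) and 1 turned in direction. The levels per library kept their place on log2(TPM + 1).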
